A study of Mus musculus with 8 samples.

Results

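Transcripts of 10 neutrophil genes were measured in liver RNA: S100a8, S100a9, Ly6g, Cxcr2, Csf3r and Retnlg, taken here as genes of the mature neutrophil, and Ngp, Camp, Ltf and Mmp8, taken as genes of its granules. They were chosen by symbol, and all 10 were found among the 55335 genes of the deposited count table. The livers came from 8 female mice, each an independent animal, that had all been through the chronic-plus-binge ethanol model of the NIAAA, in which an ethanol diet ends with an ethanol gavage. In 4 of them (28, 34, 37 and 39) Ripk1, a kinase and scaffold below death receptors, was deleted in hepatocytes (Ripk1-hepKO), and 4 (29, 32, 40 and 41) were controls (Ripk1-Con). Per its title, the study asked whether RIPK1 in hepatocytes limits liver injury, cell death and inflammation under alcohol. What drives the deletion and how old the mice were was not given in these sources, and no mouse without ethanol was among those analysed.

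Neutrophils are short-lived granulocytes that are made in the bone marrow, circulate in blood and enter the liver in alcohol-related hepatitis. They make their granule proteins in waves. Those of the primary granules come in the promyelocyte, and those of the secondary granules in the myelocyte and metamyelocyte. Most of these transcripts are low by the time the cell leaves the marrow, while the chemokine receptor CXCR2 appears late. The transcription factors PU.1 and the C/EBP family drive much of this programme.

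Each liver was read as 1 poly(A)-selected library of 36045339 to 59481293 counts in Ripk1-hepKO and 28038390 to 67328158 counts in Ripk1-Con. Mouse 28 stood apart, with a mean Spearman correlation of 0.954 with the other libraries, against 0.974 to 0.980 for the rest. Levels are given as CPM, counts scaled by library size and TMM, and per-mouse values run in the order 28, 34, 37 and 39 for Ripk1-hepKO and 29, 32, 40 and 41 for Ripk1-Con. Ripk1 itself stood at 38.1, 35.8, 33.1 and 23.1 CPM in Ripk1-hepKO, against 34.3, 53.6, 27.8 and 34.2 CPM in the controls. The groups overlapped, so Ripk1 neither identified nor contradicted a label. The 8 hepatocyte markers summed to 69164 to 90917 CPM in Ripk1-hepKO and 97079 to 114062 CPM in Ripk1-Con, as a liver sample requires. In bulk RNA, fewer neutrophils and less RNA per neutrophil cannot be told apart.

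The promoters of 5 members are shown because the results turn on the contrast between them: the calprotectin pair S100a8 and S100a9 on chromosome 3, and the granule genes Ngp, Ltf and Camp on chromosome 9. They come from RefSeq (GRCm38.p6), where all 10 members were matched, with 2 start sites for Ly6g. Each runs 5′ to 3′ along the gene, from 250 bases before the annotated start to 50 after it. Capitals mark matches on either strand to a C/EBP motif (TTGCNNAA), a PU.1 motif (GAGGAA) or the TATA box letters (TATAAA).
S100a8, chr3:90668821-90669120, plus strand: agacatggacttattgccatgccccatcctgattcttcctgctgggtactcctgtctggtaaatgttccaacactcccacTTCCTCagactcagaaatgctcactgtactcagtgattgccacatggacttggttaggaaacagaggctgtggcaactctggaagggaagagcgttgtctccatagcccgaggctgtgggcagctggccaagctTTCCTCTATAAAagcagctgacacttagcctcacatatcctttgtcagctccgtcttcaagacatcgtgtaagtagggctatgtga
S100a9, chr3:90695672-90695971, minus strand: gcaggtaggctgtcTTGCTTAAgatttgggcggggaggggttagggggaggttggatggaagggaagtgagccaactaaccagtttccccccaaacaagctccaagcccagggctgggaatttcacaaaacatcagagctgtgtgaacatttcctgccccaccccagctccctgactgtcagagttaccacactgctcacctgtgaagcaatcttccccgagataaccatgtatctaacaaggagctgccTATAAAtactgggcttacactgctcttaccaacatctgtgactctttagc
Ngp, chr9:110419558-110419857, plus strand: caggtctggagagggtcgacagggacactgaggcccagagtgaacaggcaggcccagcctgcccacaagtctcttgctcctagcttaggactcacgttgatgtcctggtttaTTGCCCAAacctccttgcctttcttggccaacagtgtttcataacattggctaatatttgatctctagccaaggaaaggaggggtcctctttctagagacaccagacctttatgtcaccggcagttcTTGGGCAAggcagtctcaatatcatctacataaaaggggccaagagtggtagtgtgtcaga
Ltf, chr9:111019042-111019341, plus strand: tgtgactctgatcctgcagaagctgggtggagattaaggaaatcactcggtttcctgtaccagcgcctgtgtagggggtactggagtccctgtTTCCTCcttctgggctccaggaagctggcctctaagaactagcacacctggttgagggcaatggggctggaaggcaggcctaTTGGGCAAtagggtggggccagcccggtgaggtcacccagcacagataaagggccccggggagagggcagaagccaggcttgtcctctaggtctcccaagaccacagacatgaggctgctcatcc
Camp, chr9:109849407-109849706, minus strand: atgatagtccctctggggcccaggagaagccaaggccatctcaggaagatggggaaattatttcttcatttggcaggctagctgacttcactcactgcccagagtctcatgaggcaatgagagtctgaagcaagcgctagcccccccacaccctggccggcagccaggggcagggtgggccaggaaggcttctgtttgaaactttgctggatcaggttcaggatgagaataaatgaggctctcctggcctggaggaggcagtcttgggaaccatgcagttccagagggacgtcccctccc

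The Ngp promoter held 2 C/EBP matches, which began 138 and 11 bases before the start. That of Ltf held 1 C/EBP match (75 bases before) and 1 PU.1 match (157 bases before). S100a8 had PU.1 matches 170 and 36 bases before the start, the nearer of which ran without overlap into a TATAAA that began 30 bases before the start. S100a9 had 1 C/EBP match 236 bases before the start and a TATAAA that began at the annotated start itself, and no match was found in the Camp window. Over the 10 members, 6 had a C/EBP match (S100a9, Ly6g, Retnlg, Ngp, Ltf and Mmp8), 6 a PU.1 match (S100a8, Ly6g, Cxcr2, Csf3r, Ltf and Mmp8) and 4 a TATAAA (S100a8, S100a9, Ly6g and Mmp8). Of 32851 mouse promoters of this length, 10.8% held the C/EBP motif, 28.3% the PU.1 motif and 13.6% TATAAA. Matches are described as letters only.

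All 10 genes were scarce in these livers. Together they held 10.5 to 49.8 CPM in Ripk1-hepKO mice and 3.85 to 35.6 CPM in Ripk1-Con mice. Per kilobase of annotated exon, S100a9 had the highest level, 18.8 ± 12.99 CPM per kb (SD over 8 mice), followed by S100a8 at 5.62 ± 4.28, Retnlg at 3.21 ± 2.40, Csf3r at 1.66 ± 0.611 and Ngp at 0.951 ± 0.806 CPM per kb. Below them came Mmp8 (0.637 ± 0.402), Cxcr2 (0.529 ± 0.399), Ly6g (0.182 ± 0.174), Ltf (0.152 ± 0.166) and Camp (0.141 ± 0.187 CPM per kb). S100a9 exceeded S100a8, S100a8 exceeded Retnlg and Cxcr2 exceeded Ly6g in 8 of 8 mice, and Csf3r exceeded Ngp in 7. The remaining neighbours in this order changed places between mice, with Retnlg above Csf3r in 6, Ngp above Mmp8 in 5, Mmp8 above Cxcr2 in 4, and Ly6g above Ltf and Ltf above Camp in 3 each.

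The calprotectin genes, whose calcium-binding products pair in the neutrophil cytosol and act as alarm signals, were highest in mouse 28 and lowest in mouse 40. S100a8 (ENSMUSG00000056054, GRCm38 chr3:90668978-90670035) stood at 9.28, 4.91, 5.93 and 1.10 CPM in the Ripk1-hepKO livers, against 3.05, 4.96, 0.232 and 1.76 CPM in the Ripk1-Con livers. S100a9 (ENSMUSG00000056071, chr3:90692632-90695721) stood at 22.7, 10.5, 12.4 and 3.66 CPM in the Ripk1-hepKO livers and 9.30, 13.4, 1.06 and 5.30 CPM in the Ripk1-Con livers. The 4 Ripk1-hepKO mice spanned most of the range of both genes and overlapped the controls, because mouse 39 lay among the lowest and mouse 32 among the highest. The genes lie 22.6 kb apart, and monocytes express them too.

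Transcripts of the receptors were highest in mouse 28 and lowest in mouse 40 as well. Csf3r, the receptor for the granulocyte growth factor G-CSF (ENSMUSG00000028859, chr4:126024550-126044440), stood at 8.36, 7.22, 8.27 and 4.08 CPM in the Ripk1-hepKO livers and at 6.22, 6.60, 1.86 and 5.20 CPM in the Ripk1-Con livers. Cxcr2, the receptor for the neutrophil chemokines CXCL1 and CXCL2 (ENSMUSG00000026180, chr1:74153989-74161246), stood at 4.20, 2.17, 1.96 and 0.614 CPM in the Ripk1-hepKO livers, against 0.742, 1.45, 0.465 and 1.28 CPM in the Ripk1-Con livers. For both receptors 3 of the 4 Ripk1-hepKO mice lay above all 4 controls, and mouse 39 lay within the control range.

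Retnlg, which encodes a secreted resistin-like protein of mouse neutrophils (ENSMUSG00000022651, chr16:48872621-48874496), stood at 2.62, 2.56, 3.39 and 0.451 CPM in the Ripk1-hepKO livers and at 1.20, 3.93, 0 and 1.07 CPM in the Ripk1-Con livers. Its highest value was in a control, mouse 32. Ly6g, the surface protein that antibodies use to mark mouse neutrophils (ENSMUSG00000022582, chr15:75155240-75159126), had 21, 5, 10 and 0 counts in the Ripk1-hepKO livers and 8, 24, 0 and 0 counts in the Ripk1-Con livers. It did not pass the filter on low counts. Both genes have close relatives in the genome, so their reads may be split. A count of 0 allows up to 3 counts, which is 0.0542 CPM in mouse 39 and 0.0996 CPM in mouse 40, for counting error only.

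**Figure D1:**
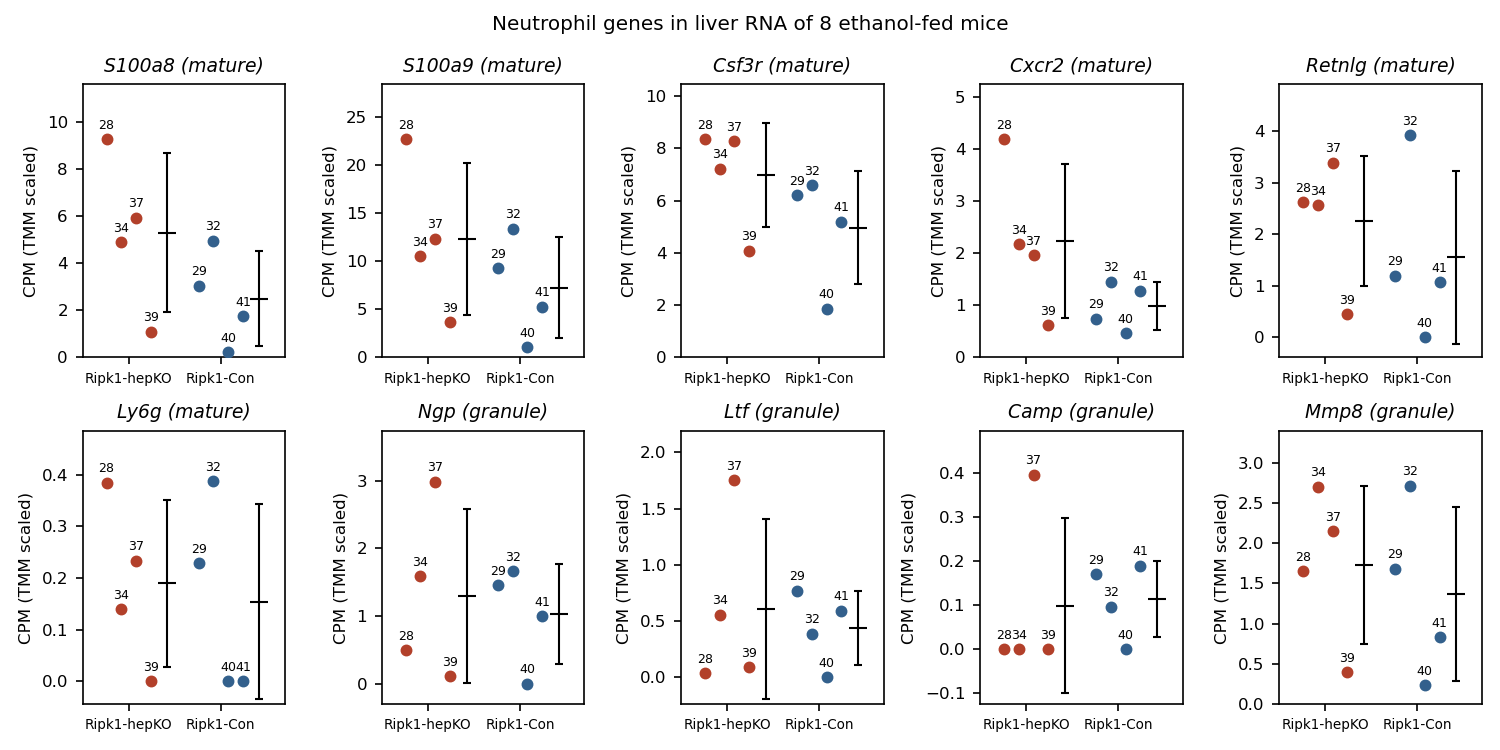
Level of each of the 10 neutrophil genes (vertical axis, CPM scaled by TMM, a scale of its own per panel) in 4 Ripk1-hepKO mice (left) and 4 Ripk1-Con mice (right), labelled by mouse number, with group mean and SD in black. Mouse 28 was the highest of the Ripk1-hepKO mice for S100a8, S100a9, Csf3r, Cxcr2 and Ly6g but near 0 for Ltf and Camp, and mouse 40 was at or near the lowest value in each panel.

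Of the genes of the secondary granules, Ngp, Ltf and Camp, all on chromosome 9, were highest in mouse 37 and low in mouse 28. Ngp, a granule protein related to the cathelicidins (ENSMUSG00000032484, chr9:110419747-110423012), stood at 0.495, 1.59, 2.99 and 0.108 CPM in the Ripk1-hepKO livers, against 1.45, 1.67, 0 and 0.997 CPM in the Ripk1-Con livers. Ltf, the iron-binding lactoferrin (ENSMUSG00000032496, chr9:111019271-111042767), stood at 0.0367, 0.558, 1.75 and 0.0903 CPM in the Ripk1-hepKO livers and 0.770, 0.388, 0 and 0.594 CPM in the Ripk1-Con livers. For both genes, 1 Ripk1-hepKO mouse (37) lay above all controls and 2 (28 and 39) lay below every control but mouse 40.

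Camp, which encodes the antimicrobial peptide cathelicidin (ENSMUSG00000038357, chr9:109847379-109849617), was near the floor. It had 0, 0, 17 and 0 counts in the Ripk1-hepKO livers and 6, 6, 0 and 8 counts in the Ripk1-Con livers, and it did not pass the filter. Mmp8, the collagenase of neutrophil granules (ENSMUSG00000005800, chr9:7558456-7568485), stood at 1.65, 2.70, 2.15 and 0.397 CPM in the Ripk1-hepKO livers and 1.68, 2.72, 0.232 and 0.831 CPM in the Ripk1-Con livers. Unlike Ngp and Ltf, Mmp8 was not low in mouse 28, which held 90 of its counts beside 27 of Ngp and 2 of Ltf.

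Between the genotypes, 0 of the 8 members tested were called at an FDR of 0.05 (edgeR, quasi-likelihood), as were 0 of all 15234 genes (0.00%). At an unadjusted p under 0.05 the count was 0 of 8 members, where 6.68% of all genes had such a p. It was 1, Cxcr2, by the DESeq2 Wald test (adjusted p = 0.578) and with edgeR on total counts (adjusted p = 0.817). With edgeR without mouse 39 it was again 1, Cxcr2 (adjusted p = 0.670). The share of all genes with such a p was not counted under these settings, and the 6.68% does not belong to them. The exact permutation p of Cxcr2 was 0.171. By the DESeq2 Wald test 0 of 8 members passed an FDR of 0.05, where 0.237% of genes did. The groups did not overlap for 0 of the 10 members, where they did not for 4.10% of all genes (2.01% higher and 2.09% lower in Ripk1-hepKO). All 8 members tested had a log2 fold change (Ripk1-hepKO over Ripk1-Con) above 0, where 51.8% of all genes did, with a median of 0.49 against 0.01 over all genes. The 8 values rest on the same mice, so they do not count as 8 independent observations. Without mice 28 and 40, 6 of 8 members had a value above 0, and the share of all genes in that fit was not counted.

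Cxcr2 had the largest estimate, with means of 2.24 ± 1.48 CPM in the Ripk1-hepKO livers and 0.986 ± 0.462 CPM in the controls (4 mice a group, SD). Its log2 fold change was 1.16 ± 0.55 (SE, with a 95% interval of -0.09 to 2.41 and an adjusted p of 0.756 by edgeR). S100a8 averaged 5.30 ± 3.37 CPM in Ripk1-hepKO and 2.501 ± 2.01 CPM in Ripk1-Con, and its log2 fold change was 1.06 ± 0.78 (interval -0.71 to 2.84, adjusted p = 0.806, edgeR). S100a9 averaged 12.3 ± 7.88 CPM in Ripk1-hepKO, against 7.26 ± 5.29 CPM in the controls, and its log2 estimate was 0.75 ± 0.70 (adjusted p = 0.842, edgeR). Csf3r, the gene with the smallest spread, averaged 6.98 ± 2.003 CPM in Ripk1-hepKO, against 4.97 ± 2.15 CPM in the controls, with a log2 estimate of 0.48 ± 0.38 (interval -0.37 to 1.33, adjusted p = 0.815, edgeR). Retnlg averaged 2.26 ± 1.26 CPM in Ripk1-hepKO, against 1.55 ± 1.67 CPM in the controls, with a log2 estimate of 0.50 ± 0.95 (adjusted p = 0.927, edgeR). Each 95% interval crossed 0, so none of these differences could be told from 0 with 4 mice a group, and each interval also reached past a 2-fold increase. Without mouse 28 the log2 estimates were 0.64 for S100a8, 0.27 for S100a9 and 0.65 for Cxcr2, and without mouse 40 they were 0.22 for Csf3r and 0.12 for Retnlg.

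Among the granule genes, Ltf averaged 0.609 ± 0.797 CPM in Ripk1-hepKO and 0.438 ± 0.331 CPM in Ripk1-Con, with a log2 estimate of 0.44 ± 1.13 (adjusted p = 0.950, edgeR). Mmp8 averaged 1.72 ± 0.984 CPM in Ripk1-hepKO, against 1.37 ± 1.08 CPM in the controls, with a log2 estimate of 0.30 ± 0.70 (adjusted p = 0.944, edgeR). Ngp averaged 1.30 ± 1.29 CPM in Ripk1-hepKO, against 1.03 ± 0.741 CPM in the controls, with one of 0.30 ± 1.04 (adjusted p = 0.966, edgeR). Single mice set these values. Without mouse 37 the estimate was -0.54 for Ngp and -1.03 for Ltf, and without mouse 40 that of Mmp8 was -0.03. Camp and Ly6g, which were not tested, had differences of -0.08 and 0.09 between the means of log2(CPM + 0.5), taken as Ripk1-hepKO minus Ripk1-Con (two-sided p = 0.829 and 0.743 by exact permutation, which can give no less than 0.0286 here).

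**Figure D2:**
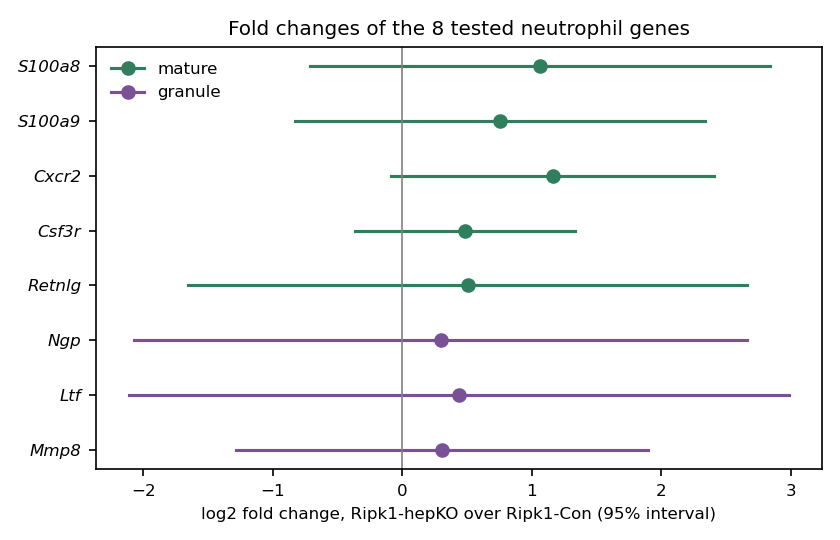
Log2 fold change, Ripk1-hepKO over Ripk1-Con (horizontal axis, edgeR estimate as a point, 95% interval as a line), of the 8 neutrophil genes that passed the filter, with mature genes in green and granule genes in purple. Every estimate lies right of 0, between 0.30 and 1.16, and every interval crosses 0.

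The 8 livers differed in how much of their neutrophil signal came from granule genes. The 4 granule genes held 4.38%, 15.0%, 18.5% and 5.67% of the counts of all 10 members in the Ripk1-hepKO livers, and 16.4%, 13.7%, 6.03% and 15.2% in the Ripk1-Con livers. The 95% Wilson intervals were 3.68% to 5.22% in mouse 28, 4.07% to 7.86% in mouse 39 and 2.95% to 11.9% in the control mouse 40, whose 10 genes had only 116 counts in all. All 3 lay below the intervals of mice 34, 37, 29, 32 and 41, the lowest of which began at 12.3%. The intervals cover counting error alone, and the groups overlapped.

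Set beside a single mature gene, Ngp took 5.07% of the summed Ngp and S100a8 counts in mouse 28 (27 of 533; 95% Wilson interval 3.50% to 7.27%) and 8.96% in mouse 39 (6 of 67). In the other Ripk1-hepKO mice, 34 and 37, it took 24.5% and 33.5%. In Ripk1-Con mice 29, 32 and 41 it took 32.3%, 25.1% and 36.2%, and in mouse 40 it took 0 of 7 counts, an interval that reached 35.4%. The share thus lay between 24.5% and 36.2% in 5 mice of both genotypes, and was lower in mice 28 and 39 by more than counting error.

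**Figure D3:**
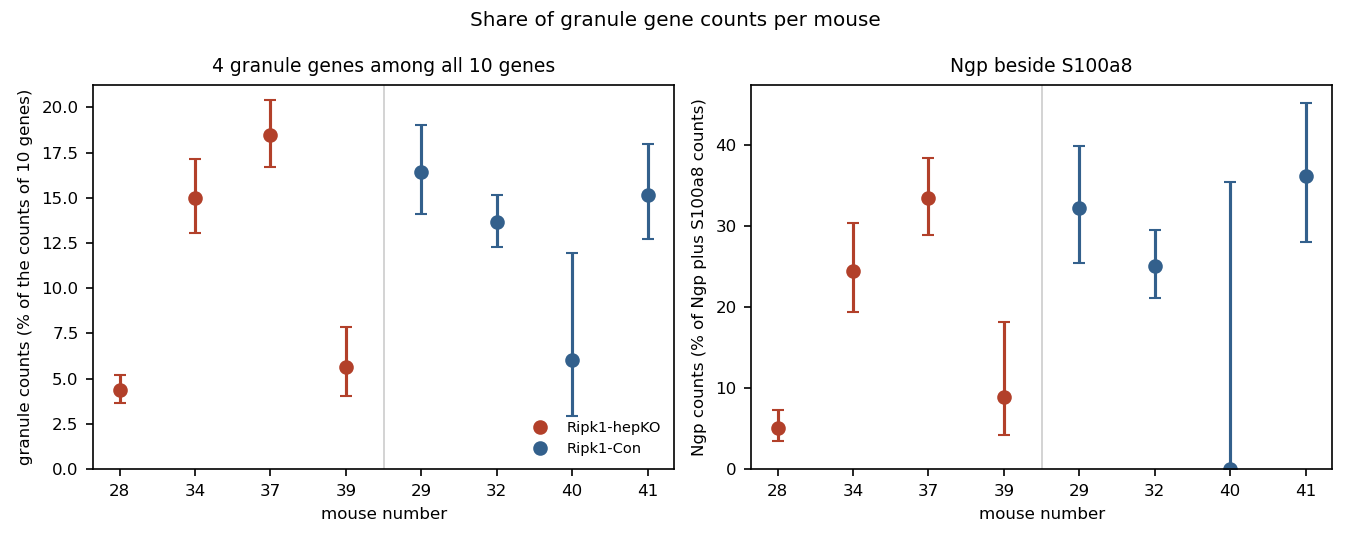
Share of counts per mouse (vertical axis, percent, with 95% Wilson intervals) held by the 4 granule genes among all 10 members (left) and by Ngp among Ngp plus S100a8 counts (right), with Ripk1-hepKO mice left of the grey line and Ripk1-Con mice right of it. Mice 28, 39 and 40 stand low in both panels, and in the right panel the interval of mouse 40, which rests on 7 counts, reaches up to 35.4% and overlaps the other mice.

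On a log scale, the mean of the granule genes minus the mean of the mature genes, in log2(CPM + 0.5), was -2.65, -1.42, -0.997 and -1.33 in the Ripk1-hepKO livers, and -0.95, -1.53, -0.76 and -0.97 in the Ripk1-Con livers. This order differs from that of the count shares. By the score, mouse 40 stood highest and mouse 39 above mice 34 and 32, so only mouse 28 was low by both measures. The added 0.5 CPM draws values near 0 together, which weighs most where counts are few, as in mouse 40. The means were -1.60 ± 0.72 for Ripk1-hepKO livers and -1.05 ± 0.33 for controls (SD, 4 mice a group), a difference of -0.54 that was smaller than the SD of the Ripk1-hepKO mice. Without mouse 28 the difference was -0.19. The mature genes alone averaged 1.76 ± 0.77 for Ripk1-hepKO livers and 1.11 ± 0.89 for controls, and the granule genes averaged 0.16 ± 0.75 for Ripk1-hepKO livers and 0.06 ± 0.63 for controls. The score has no test here, since its genes were chosen with results of these data known.

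Across the 8 mice, the members differed in how closely they followed S100a8. The granule gene Mmp8 lay among the mature genes by Pearson's r over all 8 mice. By Spearman's rho, and by r without mice 39 and 40, it lay below each mature gene. Pearson's r with S100a8, in log2(CPM + 0.5), was 0.99 for S100a9 and 0.96 for Csf3r (Spearman's rho 0.98 each), and 0.94, 0.88 and 0.86 for Retnlg, Cxcr2 and Ly6g (rho 0.90, 0.90 and 0.88). It was 0.89 for Mmp8, 0.70 for Ngp, 0.42 for Ltf and 0.27 for Camp (rho 0.69, 0.64, 0.29 and 0.23). The exact permutation p over the 40320 orders of 8 mice ranged from 4.96e-05 for Csf3r to 0.00729 for Ly6g among the mature genes, and was 0.00384, 0.0536, 0.306 and 0.527 for the granule genes in the order given. Adjusted over the 15235 genes compared with S100a8, the p was 0.0945 to 0.271 for the mature genes and 0.234 to 0.787 for the granule genes, and 0 genes passed 0.05. Without mice 39 and 40, the farthest from the median of S100a8, r was 0.97 for S100a9, 0.95 for Csf3r and 0.77 to 0.80 for Retnlg, Cxcr2 and Ly6g. It was 0.60 for Mmp8, -0.08 for Ngp, -0.31 for Ltf and -0.33 for Camp, so the relation of Ngp to S100a8 did not hold in these 6 mice, which include mouse 28. Whether the correlations of mature and granule genes differ was not tested.

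Mouse 28 alone broke the common order for Ngp. In the other 7 mice, both genes ranked the mice 37, 32, 34, 29, 41, 39 and 40 from high to low (Pearson's r 0.95). Mouse 28 was left out after its values had been seen, so this coefficient describes the 7 mice and carries no test. For Ltf, r was 0.80 in the 7 mice against 0.42 in all 8, and for Camp 0.52 against 0.27.

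**Figure D4:**
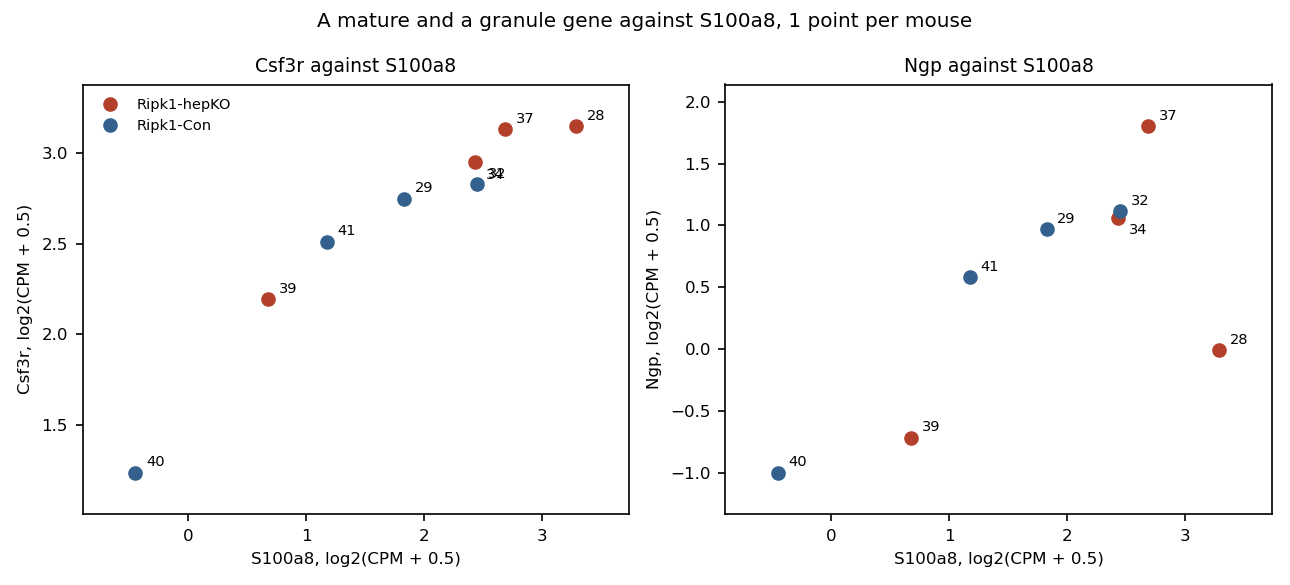
Csf3r (left) and Ngp (right) against S100a8, both axes in log2(CPM + 0.5), 1 point per mouse labelled by its number, Ripk1-hepKO in red and Ripk1-Con in blue. The mice lie along 1 line for Csf3r, and for Ngp mouse 28, with the highest S100a8, lies far below the other mice of high S100a8.

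The primary granule genes, made earlier in neutrophil development than those of the secondary granules, were found at low levels. Prtn3, which encodes proteinase 3, stood at 1.80, 4.60, 5.68 and 0.181 CPM in the Ripk1-hepKO livers and at 3.54, 7.95, 0.432 and 2.61 CPM in the Ripk1-Con livers. Elane, neutrophil elastase, had 2, 10, 30 and 0 counts in the Ripk1-hepKO livers and 19, 19, 0 and 14 counts in the Ripk1-Con livers. Mpo, myeloperoxidase, had 0, 11, 52 and 0 counts in Ripk1-hepKO, against 6, 15, 0 and 12 counts in the controls. Mice 28, 39 and 40 were thus the 3 lowest for Prtn3, Elane and Mpo, as they were for Ngp and Ltf. Ctsg, cathepsin G, and Ms4a3 had at most 8 counts in a library. Prtn3 and Elane had log2 fold changes of -0.27 ± 0.94 and -0.28 ± 1.14 (SE; edgeR adjusted p = 0.966 and 0.971), and 0 of the 2 tested had an unadjusted p under 0.05. Their direction turned with single mice, to 0.47 for Prtn3 without mouse 32 and 0.16 for Elane without mouse 39.

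Other genes that neutrophils express numbered 40, of which 27 were tested. Of these, 26 had a log2 fold change above 0 and 1 below, where 51.8% of all genes were above 0, and the median was 0.61. An FDR of 0.05 was passed by 0, and 3 had an unadjusted p under 0.05, all higher, where 3.86% of all genes were higher with such a p. Mouse 28 held the highest value of 18 of the 27 and mouse 40 the lowest of 20. Without both mice 11 of 27 had a log2 fold change above 0, and the share of all genes in that fit was not counted. Many of these genes are also expressed by macrophages or, like Lcn2 and Lrg1, by hepatocytes in the acute-phase response, and Stfa1, Stfa3 and BC100530 had 0 counts in each library.

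The 3 with the smallest p were Hdc, Clec4e and Hcar2. Hdc, the enzyme that makes histamine, stood at 11.8, 7.16, 6.66 and 4.86 CPM in the Ripk1-hepKO livers, against 3.94, 3.75, 3.92 and 4.06 CPM in the Ripk1-Con livers. The groups did not overlap, as they did not, with Ripk1-hepKO higher, for 2.01% of all genes. The log2 fold change was 0.96 ± 0.25 (SE, adjusted p = 0.742 by edgeR), or 0.67 when mouse 28 was left out. Unlike S100a8, Hdc varied little between the controls and was not low in mouse 40. Clec4e, a receptor for microbial glycolipids and dead cells, averaged 1.30 ± 0.949 CPM in Ripk1-hepKO and 0.346 ± 0.183 CPM in Ripk1-Con (edgeR adjusted p = 0.742). Hcar2, a receptor for hydroxybutyrate, stood at 20.6 CPM in mouse 28 and 0.261 to 1.28 CPM in the other 7, and the log2 estimate was 3.20 with that mouse and 0.69 when it was left out. Of the 3 most abundant, Lcn2 averaged 1378 ± 850 CPM in Ripk1-hepKO and 846 ± 438 CPM in the controls (edgeR adjusted p = 0.829). Lrg1 averaged 758 ± 399 CPM in Ripk1-hepKO and 651 ± 230 CPM in the controls, and Wfdc21 averaged 101 ± 19.7 CPM in Ripk1-hepKO and 107 ± 16.4 CPM in the controls (edgeR adjusted p = 0.930 and 0.935). Lcn2, whose lipocalin binds bacterial siderophores and is stored in secondary granules, was highest in mouse 34 and lowest in mouse 40.

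**Figure D5:**
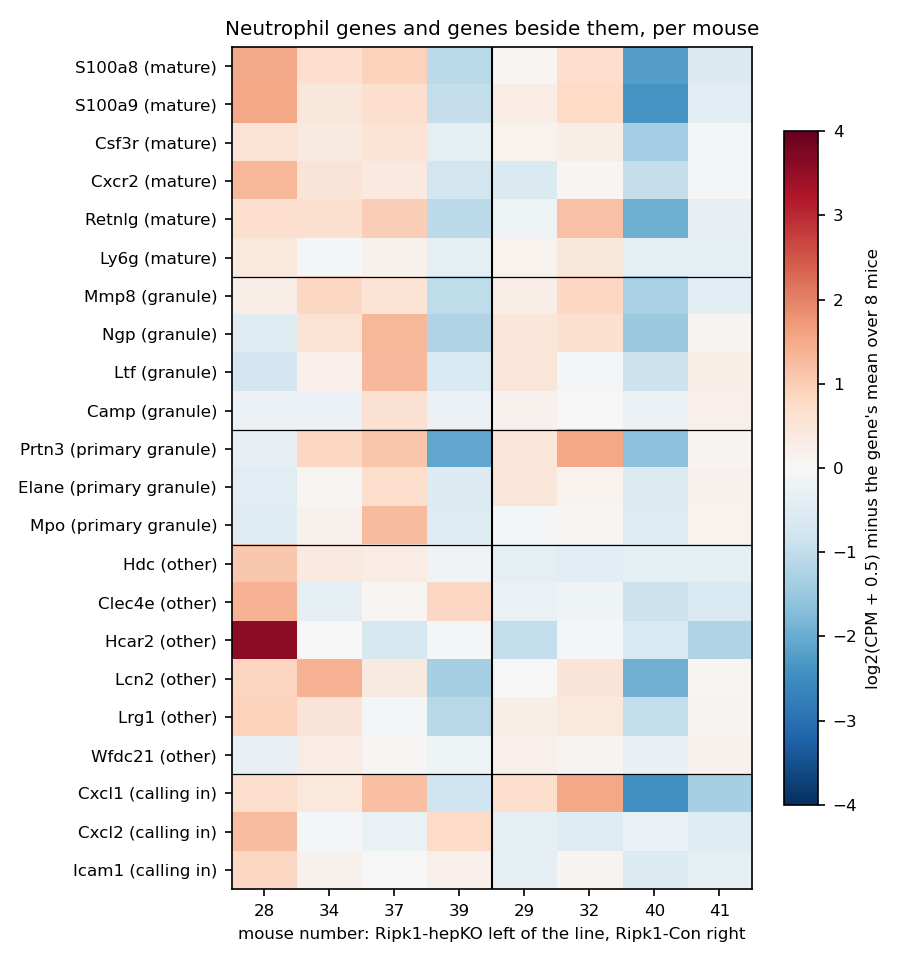
Level of each gene in each mouse (colour, log2(CPM + 0.5) minus the gene's mean over 8 mice), with genes down the page by group and Ripk1-hepKO mice left of the black line. Mouse 28 is red for the mature genes and blue for Ngp, Ltf, Camp and the primary granule genes. Mouse 39 is blue for each member. Mouse 40 is blue in each row, but faintly so where it lies close to the gene's mean, as for Camp, Hdc and Cxcl2.

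Genes that call in or hold neutrophils numbered 20, of which 13 were tested. Of these 12 had a log2 fold change above 0, against 51.8% of all genes, with a median of 0.73, 0 passed an FDR of 0.05, and 6 had an unadjusted p under 0.05, all higher, where 3.86% of all genes were higher with such a p. Without mice 28 and 40 the count was 2, and the share of all genes in that fit was not counted. Cxcl2, a ligand of CXCR2, stood at 1.67, 0.362, 0.257 and 1.05 CPM in the Ripk1-hepKO livers, against 0.200, 0.145, 0.266 and 0.143 CPM in the Ripk1-Con livers (log2 fold change 2.18 ± 0.63 SE; edgeR adjusted p = 0.742). It was high in mouse 39, where the neutrophil genes were low. Cxcl1, the other main ligand, stood at 38.8, 31.8, 55.2 and 13.6 CPM in the Ripk1-hepKO livers and 39.3, 70.2, 4.05 and 9.12 CPM in the Ripk1-Con livers (log2 fold change 0.18, or -0.18 without mouse 40; edgeR adjusted p = 0.974). Its lowest 3 mice, 40, 41 and 39, were also the 3 lowest for S100a8.

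Icam1, the endothelial ligand of neutrophil integrins, averaged 34.6 ± 9.71 CPM in Ripk1-hepKO and 22.1 ± 4.77 CPM in Ripk1-Con (log2 fold change 0.64; edgeR adjusted p = 0.742). Ccl3, Il1a, Il1b and Selp, named after their values were seen, completed the 6, and the groups did not overlap for Il1a, Il1b and Selp, as they did not, with Ripk1-hepKO higher, for 2.01% of all genes. Il1b stood at 19.5 CPM in mouse 28 and at 2.89 to 3.08 CPM in the other Ripk1-hepKO mice, against 1.33 to 2.57 CPM in Ripk1-Con, and the log2 estimate was 1.82 with mouse 28 and 0.57 when it was left out. For Selp, P-selectin, on which neutrophils roll, the estimates were 1.44 with it and 0.68 when it was left out. Csf3, which encodes G-CSF, and Il17a had 0 counts in each library, Cxcl5 had at most 5 counts, and Sele, which was not tested, stood at 0.990 CPM in mouse 28 and 0.0836 to 0.271 CPM in the rest.

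Markers of other blood and liver cells also differed between these mice, and their part in the neutrophil values was not tested. The 8 Kupffer cell markers summed to 196 to 301 CPM in Ripk1-hepKO and 79.1 to 350 CPM in Ripk1-Con, with mouse 40 lowest. The 10 monocyte markers summed to 2099 to 3634 CPM in Ripk1-hepKO and 2137 to 3995 CPM in Ripk1-Con, of which Fn1, which hepatocytes express too, averaged 2730 CPM in Ripk1-hepKO and 2975 CPM in Ripk1-Con. The 7 B and plasma cell markers summed to 6.61 to 31.1 CPM in Ripk1-hepKO, where mouse 37 was highest, and 4.48 to 20.3 CPM in Ripk1-Con, where mouse 40 was lowest. The 7 measured erythroid markers, a measure of blood in the sample, summed to 190 CPM in mouse 28, the lowest of the 8, within 190 to 516 CPM in Ripk1-hepKO and 254 to 636 CPM in Ripk1-Con. The 8 hepatocyte markers had log2 fold changes below 0, where 51.8% of all genes were above 0. An unadjusted p under 0.05 by edgeR was found for 2 of them, and for 6.68% of all genes. Their sums did not overlap between the groups, but most of each sum was Alb, which averaged 61422 CPM in Ripk1-hepKO and 82554 CPM in Ripk1-Con. The log2 estimates were -0.43 for Alb, -0.42 for Cyp2e1, -0.29 for Apoa1, -0.22 for Ttr and -0.15 for Cps1. Those of Serpina1c, Ass1 and Pck1 were near 0 (-0.03, -0.05 and -0.04). Pck1 stood at 4587 CPM in mouse 28 and at 1759, 2057 and 1117 CPM in mice 34, 37 and 39. Mouse 28 also had the lowest sum of hepatocyte markers (69164 CPM) and the highest of the 5 platelet markers (5.32 CPM, against 2.53 to 4.16 CPM in the rest). Most of that platelet sum was Itga2b, at 4.56 CPM in mouse 28. Ppbp was highest there too, but Pf4 was highest in mouse 34, Gp9 in mouse 29 and Gp1ba in mouse 39. Of the 8 markers of eosinophils, basophils and mast cells, Epx, Mcpt8, Ms4a2 and Mcpt4 were at 0 in each library, and the sum was at most 0.275 CPM in Ripk1-hepKO and 0.323 CPM in Ripk1-Con. Mitochondrial transcripts took 8.88% to 10.5% of counts in Ripk1-hepKO and 8.86% to 9.69% in Ripk1-Con, with mouse 28 highest.

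Beside the members, and among genes with an established symbol, those whose levels followed S100a8 most closely over the 8 mice were Emilin2, Cds1, Tinf2, Orm2, Alox5ap and Capzb, with Pearson's r of 0.97 to 0.98, rho of at least 0.93 and exact permutation p of 2.48e-05, the smallest that 8 mice can give, to 2.23e-04 (0.0945 to 0.126 adjusted over 15235 genes). Without mice 39 and 40, r was 0.91 to 0.98. Alox5ap encodes a protein needed to make leukotrienes, and Orm2 an acute-phase serum protein that stood at 506 ± 379 CPM in Ripk1-hepKO and 253 ± 180 CPM in Ripk1-Con. Chosen in the same way, those closest to Ngp were Iah1, Igkj1, Igkv8-30, Jchain, Sms-ps and Carmil2, with r of 0.95 to 0.96, rho of 0.83 to 0.95 and exact permutation p of 1.24e-04 to 5.95e-04 (0.404 adjusted over 15235 genes for each). Igkj1, Igkv8-30 and Jchain are genes of antibody-making cells. Jchain stood at 4.78, 14.1, 26.6 and 3.54 CPM in the Ripk1-hepKO livers and at 11.2, 12.5, 1.66 and 16.4 CPM in the Ripk1-Con livers, so mice 28, 39 and 40 were its 3 lowest and mouse 37 its highest, as for Ngp. No gene passed an adjusted p of 0.05 with either S100a8 or Ngp.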

How the data were processed

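The authors deposited 1 table of unnormalized whole-number counts, with an Ensembl gene ID per line and a column for each of 8 liver libraries. Libraries were poly(A)-selected, strand-specific by dUTP and read from both ends, per the labels' protocols. Per the submitters' processing notes, the tools include STAR 2.5.2b and StringTie 2.2.1, with DESeq2 1.38.1 and FastQC 0.11.5, and the build was GRCm38.p6. The counting tool, its strand setting and the annotation release are not given in the sources used here, so genes with close relatives or overlaps are uncertain, and a count of 0 may reflect how counts were estimated. The depth ranged from 28038390 to 67328158 counts, and no libraries were alike within sampling noise (chi-square per degree of freedom at least 36.9 over 28 pairs).

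Symbols, positions and exon lengths came from GENCODE M21 (GRCm38), in which 55154 of 55335 IDs were found. The test was that of edgeR 4.0.16 under R 4.3.3 (filterByExpr, TMM, robust quasi-likelihood fit of genotype, Benjamini-Hochberg over 15234 genes), and the common biological coefficient of variation was 0.292. Each SE is derived from the estimate and its F statistic. Mice share no numbers between groups, so nothing pairs them, and each genotype p sets the difference against the spread between these animals. Alternatives were DESeq2 1.42.0, limma 3.58.1 voom with and without quality weights, other scalings and filters, pseudocounts and mice left out. The test was checked on simulated counts. Correlations used exact permutations in NumPy 2.4.6, and shares have 95% Wilson intervals from SciPy 1.17.1.

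The members and lists were chosen with earlier results of these data known. Named beside the 10 members were, by rule, Ripk1, the 5 primary granule genes, the 3 of smallest p and the 3 of highest level among other neutrophil genes, Cxcl1, Cxcl2, Cxcl5, Csf3, Icam1 and Sele, and the 6 genes closest to S100a8 and to Ngp that have an established symbol. Bone marrow progenitor markers (7 genes) summed to 13.1 to 20.5 CPM in Ripk1-hepKO and 14.2 to 20.7 CPM in Ripk1-Con, and those of T and NK cells (8 genes) to 2.91 to 4.95 CPM in Ripk1-hepKO and 2.92 to 4.96 CPM in Ripk1-Con.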

Additional observations from a re-analysis of the deposited data

Results flagged for a closer look

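Camp was flagged in the Ripk1-hepKO group because mouse 37, at 0.397 CPM (17 counts), lay far from the other 3 mice, which were listed at 0. Over 26 such checks of the 10 members and their levels in both groups of 4 mice, 1 was flagged, and chance alone flags about 1 in 20 groups. That rate does not apply to Camp. With 3 mice at 0, any count in mouse 37 gives the largest gap possible, so the flag adds nothing to the counts.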

How the results depend on the processing

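No member passed an FDR of 0.05 under any alternative run, and over all genes the count was 0 under each alternative except the DESeq2 Wald test, which called 36 genes (14 higher and 22 lower), none of them a member. Of 77 member values under other scalings, filters and tests, 74 kept their direction: limma voom gave -0.20 for Ltf, and voom with quality weights gave -0.18 for Ltf and -0.20 for Ngp. Without mice 28 and 40 the log2 fold change was -0.08 for S100a9, -0.02 for Mmp8 and 0.42 for Cxcr2, and the difference of Ly6g was -0.15. With 1 mouse left out, log2 fold changes ran from 0.64 to 1.65 for S100a8, 0.27 to 1.24 for S100a9, 0.65 to 1.48 for Cxcr2, 0.22 to 0.68 for Csf3r, 0.12 to 1.55 for Retnlg, -0.54 to 0.69 for Ngp, -1.03 to 0.84 for Ltf and -0.03 to 0.90 for Mmp8. The differences ran from -0.04 to 0.25 for Ly6g and -0.29 to -0.01 for Camp. The granule minus mature difference ran from -0.74 to -0.19 with 1 mouse left out, was -0.10 without mice 28 and 40, -0.78 with a pseudocount of 0.1 and -0.35 with one of 2, and was -0.40 to -0.57 under the other choices of genes and scaling. Of genes beside the members, voom with quality weights gave -0.13 for Lrg1, and without mice 28 and 40 Lrg1 had -0.33 and Cxcl1 -0.24. With 1 mouse left out, Lrg1 ran from -0.11 to 0.49, Wfdc21 from -0.20 to 0.00, Elane from -1.64 to 0.16, Prtn3 from -0.76 to 0.47 and Cxcl1 from -0.18 to 0.99. The cause of these changes was not tested beyond the mice left out. No paired analysis was possible because the groups share no mouse numbers. At 0 to 128 counts per library, depth limits what Ngp, Ltf, Camp and Ly6g can show.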
